A study of Mus musculus with 12 samples.

Results

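The set described here holds 7 genes with which astrocytes move potassium, water, sodium and bicarbonate, namely Kcnj10, Kcnj16, Kcnk1, Aqp4, Atp1b2, Slc4a4 and Dag1. They were listed by name, with earlier results of these data known, and each matched 1 of the 50600 rows of the count table. RNA-seq was performed on cells from the dentate gyrus of adult Nestin-GFP mice, which carry GFP under regulatory sequence of Nestin, in 4 libraries of 50 sorted cells for each of 3 cell types. All cells were live and negative for CD31, CD45, O1 and O4. Astrocytes were positive only for the glutamate transporter GLAST, progenitors only for GFP, and stem cells for both. The labels name no treatment in any group. The study describes the libraries of a cell type as biological replicates and states that a single mouse brain sufficed for each. The labels do not tie single libraries to mice, so libraries of different cell types could not be paired by mouse.

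Astrocytes take up the potassium that neurons release and carry it to sites of lower concentration. Kcnj10 encodes Kir4.1, the inward rectifier that sets the very negative resting potential of astrocytes, and Kcnj16 encodes Kir5.1, which forms channels together with Kir4.1. Kcnk1 encodes TWIK-1, a tandem-pore potassium channel. Atp1b2 encodes the beta-2 subunit of the sodium pump. Aqp4 encodes the main water channel of brain, held at perivascular endfeet by the dystrophin complex, whose link to the extracellular matrix is dystroglycan, the product of Dag1. Slc4a4 encodes NBCe1, an electrogenic sodium bicarbonate cotransporter.

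The sequence before the start site was read for the 5 members that RefSeq lists on GRCm38.p6 in the table used here (Kcnj10, Kcnj16, Kcnk1, Slc4a4 and Dag1, with 10 start sites in all). The 3 shown are those of the partners Kcnj10 and Kcnj16 and of Dag1, because Kcnj10 and Kcnj16 encode partners of a shared channel and Dag1 differed least between progenitors and stem cells. They lie at chr1:172340960-172341209 on the plus strand, chr11:110967783-110968032 on the plus strand and chr9:108263959-108264208 on the minus strand, each the 250 bases before an annotated start and outside the exons of its gene. Capitals mark matches to TTCNNNGAA (a STAT motif) and CAGCTG (an E-box).
Kcnj10: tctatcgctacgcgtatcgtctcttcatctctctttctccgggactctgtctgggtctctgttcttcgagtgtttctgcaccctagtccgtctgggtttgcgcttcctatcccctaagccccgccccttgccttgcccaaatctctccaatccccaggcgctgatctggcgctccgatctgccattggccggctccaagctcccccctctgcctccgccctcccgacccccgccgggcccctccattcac
Kcnj16: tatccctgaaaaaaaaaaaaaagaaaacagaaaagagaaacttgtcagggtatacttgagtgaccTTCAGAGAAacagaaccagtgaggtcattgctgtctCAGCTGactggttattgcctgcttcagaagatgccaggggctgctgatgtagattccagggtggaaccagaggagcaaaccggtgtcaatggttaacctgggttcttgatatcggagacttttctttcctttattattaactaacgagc
Dag1: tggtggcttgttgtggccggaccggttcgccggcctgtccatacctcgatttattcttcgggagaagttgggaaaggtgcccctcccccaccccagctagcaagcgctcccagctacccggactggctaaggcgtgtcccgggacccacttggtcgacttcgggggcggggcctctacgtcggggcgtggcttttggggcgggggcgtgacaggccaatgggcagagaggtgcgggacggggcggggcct
Of the bases shown, 42.8% were G or C before Kcnj16, 62.0% before Kcnj10 and 67.6% before Dag1, against a median of 52.4% over 32851 promoters. The counts of CpG were 3, 17 and 21 in the same order, against a median of 6. A window of Slc4a4 that is not shown held 44, but it lay wholly within annotated exons of the gene. The other window of Slc4a4, outside its exons, held 3. Whether CpG goes with the level of a gene was not tested. Both strands were searched for 4 motifs, which do not overlap here. TTCNNNGAA was held by 7.02% of all promoters and CAGCTG by 13.0%, and each had 1 match before Kcnj16. Neither TTGGCA (an NFI motif, in 12.3% of promoters) nor AACAAT (a SOX motif, in 9.42%) was found in the 3 windows. Of the 7 other windows, 2 before further starts of Kcnj16 held 1 TTGGCA each, and that before Kcnk1 held 1 AACAAT. A match is a description of letters and was not tested as a site.

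Libraries held 5357232 to 6253680 counts in astrocytes, 9041498 to 12535028 in progenitors and 5031166 to 10435711 in stem cells. Genes with at least 10 counts numbered 9430 to 11655, 16389 to 17015 and 13368 to 14175 in the same order. The paper describes the cDNA of the astrocytes as suboptimal in quality. The part of cDNA quality in the differences below was not tested. A count of 0 allowed up to 3 counts, which was at most 0.639 CPM (the depth-normalised read count, here divided by TMM-scaled library totals). The labels were compared with marker genes. The 9 stem cell markers summed to 1366-2420 CPM in stem cells, which overlapped the 847.5-1517 CPM of astrocytes, and to 780.3-981.0 CPM in progenitors. The 10 astrocyte markers (such as Slc1a3, which encodes GLAST, Aldoc and Gja1) summed to 33840-42360 CPM in stem cells, 20590-28150 CPM in astrocytes and 10220-13300 CPM in progenitors, so the progenitor libraries, sorted without GLAST, still held them. The progenitor libraries also held 1925-3202 CPM of 6 oligodendrocyte precursor markers, against at most 320.6 CPM elsewhere, and 869.2-1958 CPM of 10 progenitor and immature neuron markers, against at most 305.0 CPM. The 5 mural cell markers summed to 38.6-2148 CPM in progenitors, with Vtn at 944.5, 1.25, 1517 and 782.1 CPM in libraries a to d. Astrocyte library a stood apart, with 1200 CPM of 6 mature neuron markers and 3205 CPM of 6 oligodendrocyte markers. The 5 ependymal and choroid plexus markers were at 0 in all astrocyte and stem cell libraries. The part of these other cells in the results below was not tested. In sorted pools, fewer cells of a type and less RNA per cell cannot be told apart.

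All 7 members were detected in all 12 libraries and passed the filter on low counts in each comparison, with between 110 and 17595 counts in a library. Per kb of exon, which allows levels to be compared between genes, Atp1b2 was the highest in each cell type, at 412.6 ± 45.2 CPM per kb in stem cells, 276.6 ± 48.3 in astrocytes and 145.4 ± 27.5 in progenitors (SD, n = 4). In stem cells Aqp4 followed at 198.5 ± 29.6 CPM per kb and Kcnk1 at 163.7 ± 68.6, and these neighbours did not differ beyond their spread. Slc4a4 (60.5 ± 10.6), Kcnj16 (42.2 ± 6.52), Dag1 (23.2 ± 7.63) and Kcnj10 (21.4 ± 10.4) were lower, and the last 2 could not be ordered. Astrocytes had the order Atp1b2, Aqp4 (89.8 ± 27.8), Slc4a4 (63.5 ± 24.4), Kcnk1 (58.3 ± 54.4), Kcnj16 (36.4 ± 13.5), Kcnj10 (28.1 ± 21.2) and Dag1 (15.95 ± 10.6), where only the step from Atp1b2 to Aqp4 was larger than the spread. In progenitors, Kcnk1 (109.0 ± 34.6) and Aqp4 (75.0 ± 24.4) followed Atp1b2, whereas Dag1 (23.1 ± 4.08), Slc4a4 (17.98 ± 6.30), Kcnj16 (13.4 ± 5.73) and Kcnj10 (12.2 ± 3.97) lay close together.

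The question of each comparison was how the ion and water genes of astrocytes differ between astrocytes and the stem and progenitor cells of the same tissue. Progenitors had less of the pump subunit, the bicarbonate transporter, the water channel and Kir5.1 than stem cells, by 2.71 to 3.46 times. In edgeR's quasi-likelihood test, 4 of the 7 members were called lower in progenitors (adjusted p under 0.05), whereas 3.66% of the 15427 genes tested were called lower. The 3 others, Kcnj10, Kcnk1 and Dag1, did not pass. Astrocytes had more Slc4a4 and Atp1b2 than progenitors, with 2 of 7 called higher against 2.45% of 14806 genes. Between astrocytes and stem cells none of the 7 was called, where 0.0468% of 12831 genes were called in either direction. At an unadjusted p under 0.05 in edgeR, 3 members and 2792 of 14806 genes passed in astrocytes over progenitors. In progenitors over stem cells 5 members and 3278 of 15427 genes did. Between astrocytes and stem cells 2 members passed, as did 1226 of all genes. DESeq2 called 1 member and 635 of the 12831 genes.

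**Figure D1:**
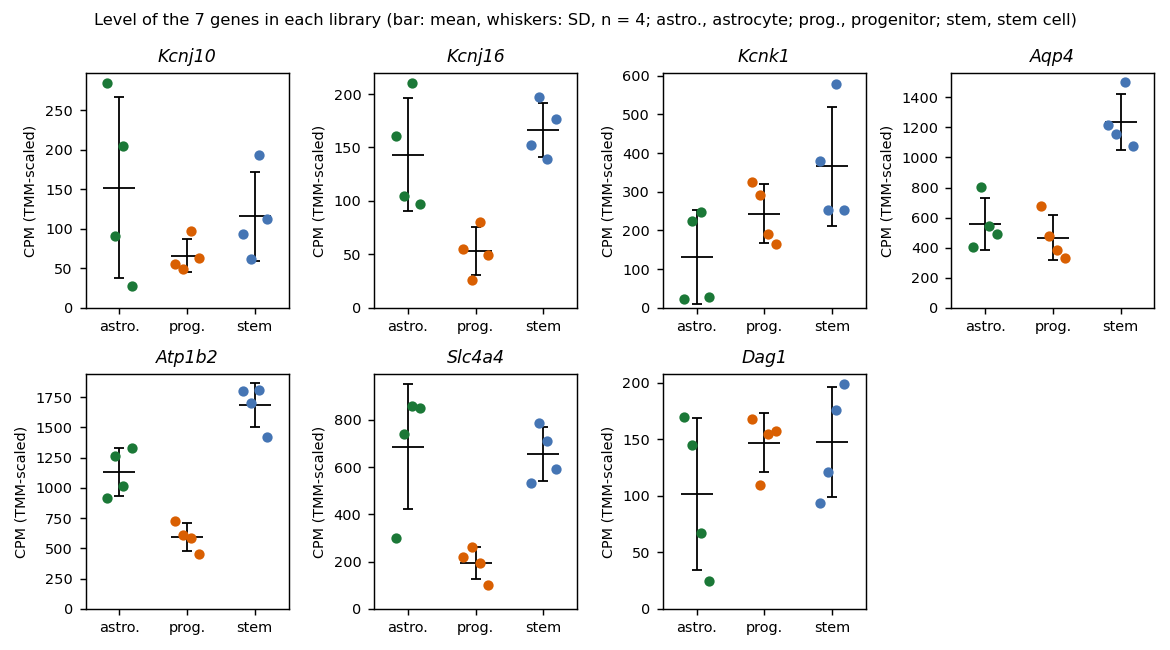
TMM-scaled CPM (vertical axes, each from 0) of the 7 genes in the 4 libraries of each cell type, with the mean and SD. Aqp4 and Atp1b2 are highest in all 4 stem cell libraries, Slc4a4 is lowest in all 4 progenitor libraries, and Kcnk1 splits the astrocyte libraries into 2 at 23.4 and 27.4 CPM and 2 at 223.6 and 246.9 CPM.

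**Figure D2:**
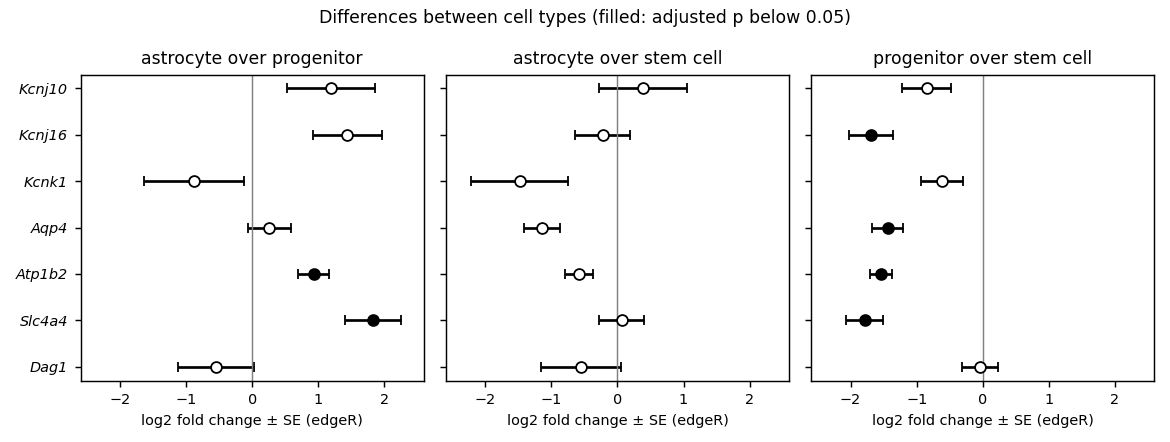
Log2 fold change with its SE (horizontal axes) of each gene in the 3 comparisons, from edgeR on the 8 libraries of each. Filled points passed the adjusted threshold, which were Slc4a4 and Atp1b2 in astrocytes over progenitors and Kcnj16, Aqp4, Atp1b2 and Slc4a4 in progenitors over stem cells.

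Aqp4 (chromosome 18, 15389496 to 15410982, minus strand, GRCm38) was the aquaporin gene with the most RNA. Its level was 1216, 1154, 1501 and 1077 CPM in stem cell libraries 1 to 4, 402.3, 804.0, 543.6 and 487.9 CPM in astrocytes a to d, and 675.8, 480.9, 385.1 and 328.8 CPM in progenitors a to d. All 4 stem cell libraries were above all 8 others, whereas astrocytes and progenitors overlapped. The log2 fold change was -1.44 ± 0.23 (SE) in progenitors over stem cells (adjusted p = 0.0051). In astrocytes over stem cells it was -1.15 ± 0.27 with an adjusted p of 0.0966, which missed the threshold, although DESeq2 (0.045) and the fit of all 12 libraries (0.0478) called it, and the range over the alternatives that kept all libraries was 0.045 to 0.135. In astrocytes over progenitors it was 0.26 ± 0.32 (adjusted p = 0.757), a sign that turned without TMM factors (-0.19).

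The other genes for water and volume regulation were a fixed list of 12, Aqp4 among them, of which 7 passed the filter on low counts. Against stem cells, 4 were called lower in progenitors and none higher (3.66% and 4.95% of all genes tested). Besides Aqp4 these were Mlc1 and Hepacam, which encode partner membrane proteins of astrocyte contacts that are mutated in a leukodystrophy with swelling of white matter, and the aquaglyceroporin gene Aqp9. Mlc1 had a mean of 843.4 CPM in stem cells and 297.6 CPM in progenitors (log2 fold change -1.54 ± 0.25, adjusted p = 0.00503). Hepacam had 463.9 and 185.4 CPM (-1.36 ± 0.20, adjusted p = 0.00297). Aqp9 had 32.3 and 7.71 CPM (-2.11 ± 0.55, adjusted p = 0.0418). None of the 7 was called between astrocytes and progenitors (3 had an unadjusted p under 0.05) or between astrocytes and stem cells (1 had). Of all genes, 2792 of 14806 and 1226 of 12831 had such a p in these comparisons. The median log2 fold change of the 7 was -1.36 in progenitors over stem cells, 0.75 in astrocytes over progenitors and -0.29 in astrocytes over stem cells, beside 0.04, 0.03 and 0.14 over all genes tested. Per kb, Aqp4 made up 81.9-93.1% of the RNA of 7 aquaporin genes in astrocytes, 88.7-97.7% in progenitors and 92.0-95.8% in stem cells, so its share overlapped between the cell types.

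Atp1b2 (chromosome 11, 69599736 to 69605942, minus strand, GRCm38) was the most even member in astrocytes and stem cells. It measured 1805, 1704, 1814 and 1419 CPM in stem cells 1 to 4, 914.8, 1265, 1013 and 1327 CPM in astrocytes a to d, and 724.3, 612.8, 588.0 and 450.5 CPM in progenitors a to d. The 3 cell types did not overlap. Progenitors were below stem cells by 1.54 ± 0.17 on the log2 scale (log2 fold change -1.54, adjusted p = 0.000937) and astrocytes were above progenitors by 0.93 ± 0.24 (adjusted p = 0.0348). The difference of -0.58 ± 0.21 between astrocytes and stem cells did not pass (adjusted p = 0.338). The coefficient of variation was 10.96% in stem cells, 17.47% in astrocytes and 18.9% in progenitors (where Dag1 had 17.62%), and the medians of genes with at least 50 CPM were 30.4%, 68.8% and 22.1% in the same order.

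Per kb, Atp1b2 made up 74.5-80.5% of the beta subunit RNA in astrocytes, 47.2-65.7% in progenitors and 72.8-78.9% in stem cells, and its share was lower in each progenitor library than in any other library. Of the 12 listed sodium pump genes, Atp1b2 among them, 9 were tested in astrocytes over progenitors, with 3 called higher and none lower (2.45% and 6.18% of all genes tested), and 10 in progenitors over stem cells, with 1 called higher and 4 lower (4.95% and 3.66% of all genes tested). Besides Atp1b2, the genes called in the former included Fxyd1, which encodes the pump regulator phospholemman. Fxyd1 averaged 309.1 CPM in astrocytes, 334.4 CPM in stem cells and 93.2 CPM in progenitors (1.73 ± 0.37, adjusted p = 0.017 over progenitors, and -1.88 ± 0.26, adjusted p = 0.00259 in progenitors over stem cells). Atp1b1, the beta-1 subunit, was also lower in progenitors than in stem cells, with 102.5 against 194.5 CPM (-0.96 ± 0.24, adjusted p = 0.035). Fxyd6, another regulator of the pump, went the other way, with 357.0, 464.2, 545.1 and 658.6 CPM in progenitors and 0.21, 0.26, 18.8 and 0.37 CPM in stem cells (6.63 ± 1.28, adjusted p = 0.0108). It met the filter on low counts only through the progenitor libraries, so its call followed from that choice and is given as a description. None of the 8 genes tested was called between astrocytes and stem cells, and 2 had an unadjusted p under 0.05.

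Slc4a4 (chromosome 5, 88886818 to 89239653, plus strand, GRCm38) overlapped between astrocytes and stem cells and was lower in progenitors. Its values were 299.5, 740.7, 857.5 and 850.4 CPM in astrocytes a to d, 531.8, 784.9, 712.2 and 590.1 CPM in stem cells 1 to 4, and 220.2, 262.4, 193.9 and 101.4 CPM in progenitors a to d. The lowest astrocyte library, a, was still above the highest progenitor library. The log2 fold change was -1.79 ± 0.28 in progenitors over stem cells (adjusted p = 0.00435) and 1.83 ± 0.42 in astrocytes over progenitors (adjusted p = 0.022), the largest of the 7 members in both. In astrocytes over stem cells it was 0.06 ± 0.34 (adjusted p = 0.978), with a sign that changed between settings. Relative to Aqp4 of the same library, Slc4a4 was higher in each astrocyte library, at 0.43-1.01 per kb, than in any stem cell (0.25-0.39) or progenitor library (0.18-0.31), a ratio chosen after its values were seen and given without a test.

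Of the 13 listed genes of bicarbonate and acid-base transport, 9 were tested in astrocytes over progenitors, with 2 called higher and 1 lower, beside 2.45% and 6.18% of all genes. Slc4a3, an anion exchanger, was higher in astrocytes, at 67.5, 230.1, 75.7 and 196.7 CPM against 14.1-25.4 CPM in progenitors (2.78 ± 0.60, adjusted p = 0.0178). Slc4a10, a sodium-driven bicarbonate transporter known from neurons, was lower, with at most 0.593 CPM in astrocytes and 10.1-32.9 CPM in progenitors (-5.87 ± 1.33, adjusted p = 0.0207). With at most 3 counts in an astrocyte library, Slc4a10 passed the filter on low counts only through the progenitor libraries. Its call followed from that choice and is given as a description. In progenitors over stem cells, 2 of 8 were called, both lower (3.66% of all genes were called lower). Beside Slc4a4 this was Car2, which encodes carbonic anhydrase 2, with means of 295.2 and 1045 CPM (-1.86 ± 0.21, adjusted p = 0.000965). In astrocytes Car2 averaged 504.1 CPM. None of the 7 tested was called between astrocytes and stem cells, and 2 had an unadjusted p under 0.05. Slc4a4 took 80.0-90.8% of the RNA of the listed Slc4 genes per kb in stem cells, 56.5-77.6% in astrocytes and 32.9-71.7% in progenitors.

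The inward rectifier genes Kcnj10 and Kcnj16 encode subunits of a shared channel but differed in how evenly they were measured. Kcnj16 (chromosome 11, 110968033 to 111027968, plus strand) had 152.5, 196.9, 139.1 and 176.6 CPM in stem cells 1 to 4, 160.8, 104.3, 210.2 and 97.2 CPM in astrocytes a to d, and 55.4, 25.6, 80.5 and 49.8 CPM in progenitors a to d. All progenitor libraries were below all others. Progenitors over stem cells gave -1.69 ± 0.33 (adjusted p = 0.0112). In the fit of all 12 libraries this adjusted p was 0.0586. Astrocytes over progenitors gave 1.44 ± 0.52 without passing (adjusted p = 0.145), although DESeq2 (0.0344) and the fit of all 12 libraries (0.0471) called it, in a range of 0.0344 to 1.0 over the settings other than leaving out single libraries, the highest with progenitor b as the only progenitor library. Astrocytes over stem cells gave -0.22 ± 0.42 (adjusted p = 0.93).

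Kcnj10 (chromosome 1, 172341210 to 172374085, plus strand) held 17 CpG in the window shown, and the 4 windows of Kcnj16 held 1 to 7. A link to level was not tested. Kcnj10 varied 10.3-fold between astrocyte libraries. Its coefficient of variation there was 75.4%, where the median of genes with at least 50 CPM was 68.8%. It had 284.3, 91.5, 205.2 and 27.6 CPM in astrocytes a to d, 93.9, 62.3, 193.8 and 113.1 CPM in stem cells 1 to 4, and 55.2, 49.5, 97.4 and 62.7 CPM in progenitors a to d. The 3 cell types overlapped. No comparison passed, with 1.19 ± 0.66 in astrocytes over progenitors (adjusted p = 0.39), 0.39 ± 0.67 in astrocytes over stem cells (0.918) and -0.85 ± 0.37 in progenitors over stem cells (0.222). The highest value belonged to astrocyte library a, the library with the most neuron and oligodendrocyte marker RNA. Without it, the difference from stem cells was -0.10. The ratio of Kcnj10 to Kcnj16 per kb ranged from 0.21 to 1.29 over the astrocyte libraries, from 0.23 to 1.01 over stem cells and from 0.73 to 1.41 over progenitors.

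Among the 15 listed inward rectifier genes, both members included, 5 were tested in astrocytes over progenitors and in astrocytes over stem cells, with none called (1 and 0 with an unadjusted p under 0.05). In progenitors over stem cells 7 were tested, and Kcnj16 was the only one called, lower (3.66% of all genes were called lower). Kcnj10 and Kcnj16 together took 80.5-100.0% of the inward rectifier RNA per kb in astrocytes and 86.5-95.3% in stem cells, but 28.5-65.9% in progenitors. Kcnj8, the Kir6.1 gene of mural cells, had 51.5, 0.25, 230.0 and 17.46 CPM in progenitors a to d and at most 8.86 CPM elsewhere. Kcnj13, the Kir7.1 gene, had 1.51, 5.35, 1.48 and 53.4 CPM in the same libraries. The share of Kcnj10 and Kcnj16 was 46.9%, 65.9%, 28.5% and 32.8% in them, and what set it was not tested.

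Kcnk1 (chromosome 8, 125995170 to 126030685, plus strand) was not called in any comparison. It had 379.0, 253.7, 577.9 and 252.8 CPM in stem cells 1 to 4, 325.7, 292.0, 190.7 and 166.0 CPM in progenitors a to d, and 23.4, 223.6, 246.9 and 27.4 CPM in astrocytes a to d. Astrocyte libraries a and d were low and b and c high, a 10.5-fold range, and all 4 lay below the lowest stem cell library. The coefficient of variation of Kcnk1 in astrocytes was 93.3%, beside a median of 68.8% over genes with at least 50 CPM. The log2 fold changes were -1.48 ± 0.74 in astrocytes over stem cells (adjusted p = 0.584), -0.62 ± 0.32 in progenitors over stem cells (0.308) and -0.88 ± 0.75 in astrocytes over progenitors (0.617). Of its exonic bases, 8.01% overlap the antisense gene Gm45875, and counting without strand cannot separate the reads there.

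Of the 14 listed tandem-pore channel genes, 5 were tested in progenitors over stem cells, with 2 called higher (4.95% of all genes), and 4 in astrocytes over progenitors, with the same 2 called lower (6.18% of all genes). These were Kcnk3 (TASK-1) and Kcnk10 (TREK-2), which passed the filter on low counts only through the progenitor libraries, so their calls followed from that choice and are given as a description. Kcnk3 had 3.91, 6.52, 13.95 and 6.19 CPM in progenitors and no count in any other library, so its progenitor mean was at least 11.96-fold above astrocytes and 13.7-fold above stem cells (3 counts in the library with the highest floor). Kcnk10 had 37.2, 15.7, 33.5 and 10.7 CPM in progenitors, no count in astrocytes (at least 38.0-fold) and 3 counts in all in stem cells. Neither of the 2 genes tested was called between astrocytes and stem cells (0 with an unadjusted p under 0.05). Kcnk1 still took most of the tandem-pore RNA per kb, 79.1-89.8% in progenitors, 87.7-97.6% in stem cells and 60.03-88.3% in astrocytes.

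Dag1 (chromosome 9, 108204634 to 108263958, minus strand) held 21 CpG in the window shown and 36 in its other window, and a link to level was not tested. The gene had the smallest difference between progenitors and stem cells. It measured 167.6, 109.1, 154.4 and 156.9 CPM in progenitors a to d, 93.3, 121.3, 176.0 and 198.7 CPM in stem cells 1 to 4, and 169.3, 145.0, 66.8 and 24.5 CPM in astrocytes a to d. The cell types overlapped. The log2 fold change was -0.04 ± 0.27 in progenitors over stem cells (adjusted p = 0.956), -0.55 ± 0.57 in astrocytes over progenitors (0.701) and -0.55 ± 0.61 in astrocytes over stem cells (0.863).

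The listed partners of dystroglycan showed other patterns. Of the 13 listed genes of the dystrophin-associated complex, 12 were tested in each comparison. In astrocytes over progenitors 2 were called higher and 1 lower (2.45% and 6.18% of all genes). The former were Dmd, the dystrophin gene, at 1427 against 467.2 CPM (1.61 ± 0.24, adjusted p = 0.00735) and Dtna, which encodes alpha-dystrobrevin, at 867.0 against 262.2 CPM (1.73 ± 0.28, adjusted p = 0.0102). In progenitors over stem cells 2 were called lower and 1 higher, with Dtna among the lower (-1.16 ± 0.17, adjusted p = 0.00359, beside 3.66% and 4.95% of all genes). The called gene that was higher in progenitors was the sarcoglycan gene Sgcd, which passed the filter only through these libraries, at 7.61, 15.1, 17.46 and 29.9 CPM, with no count in astrocytes (at least 27.4-fold) and 6 counts in all in stem cells. Between astrocytes and stem cells none of the 12 was called, while 5 had an unadjusted p under 0.05. Dag1 over Dmd per kb ranged from 0.07 to 0.49 over the astrocyte libraries, from 0.50 to 1.53 over stem cells and from 0.87 to 1.72 over progenitors, so each astrocyte library was below all others. None of the 11 genes that glycosylate dystroglycan was called in any comparison, with 0, 1 and 0 at an unadjusted p under 0.05 in astrocytes over progenitors, astrocytes over stem cells and progenitors over stem cells. Likewise none of the 3 tested of 7 cation-chloride cotransporter genes was called (0, 0 and 2). Over all genes these counts were 2792 of 14806, 1226 of 12831 and 3278 of 15427.

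**Figure D3:**
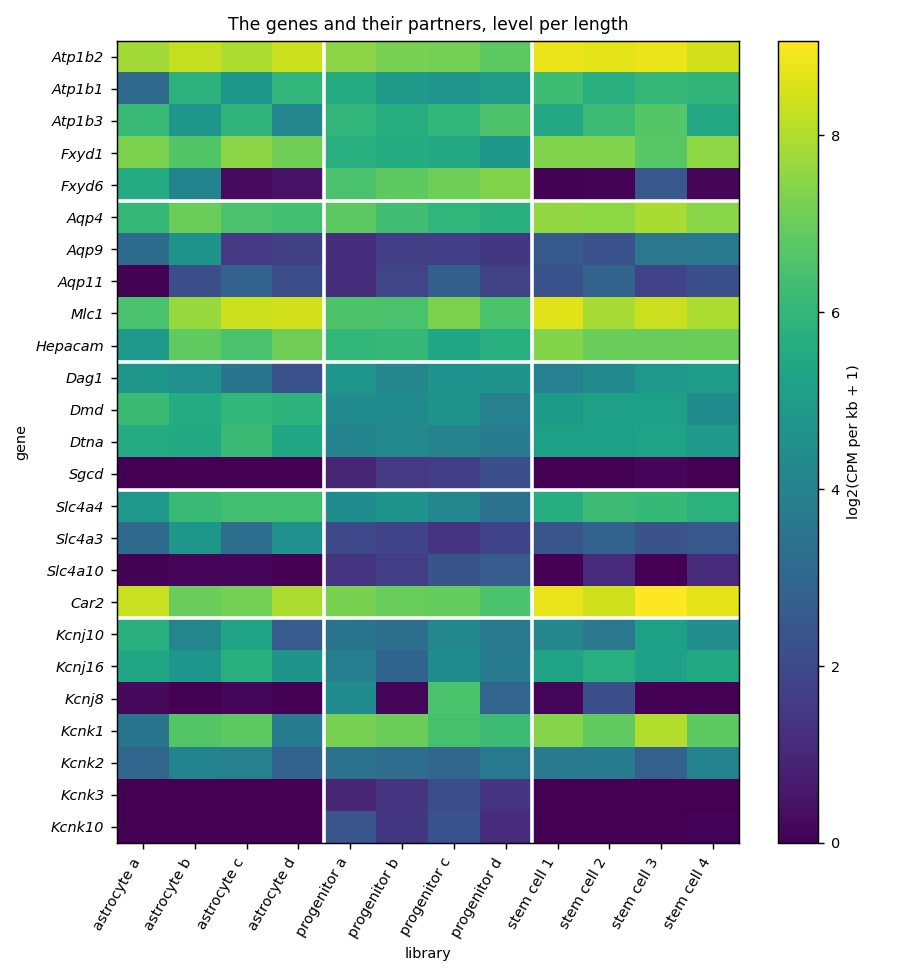
Log2(CPM per kb + 1) (colour) of the 7 genes and their relatives (rows, grouped as sodium pump, water and volume, dystrophin complex, bicarbonate and potassium channels) in the 12 libraries (columns). Atp1b2 is bright throughout, and Kcnk3, Kcnk10, Sgcd and Kcnj8 show mainly in progenitor libraries.

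**Figure D4:**
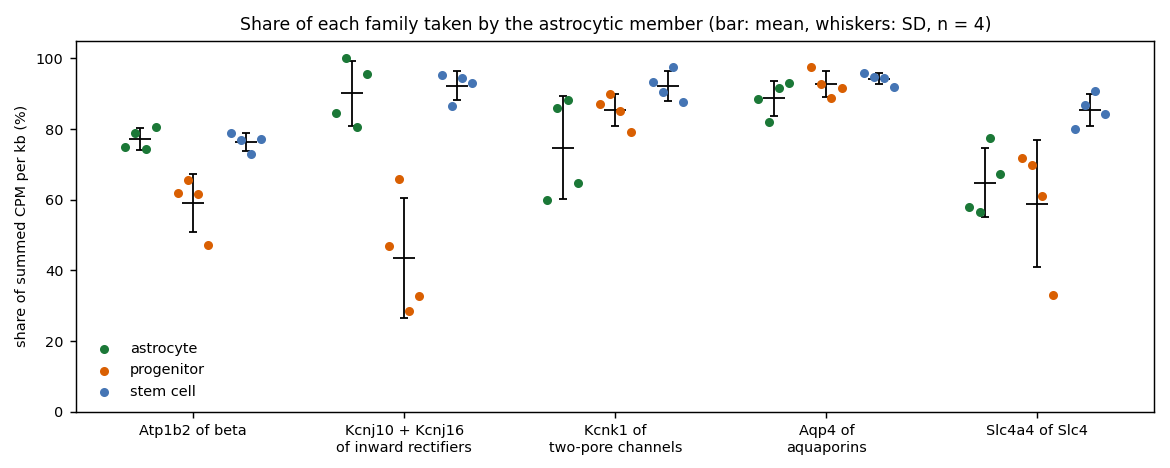
Share of the summed CPM per kb of each gene family (vertical axis, percent) taken by the gene or pair named below, by library, with the mean and SD. Kcnj10 and Kcnj16 take 28.5-65.9% in progenitors against 80.5-100.0% in astrocytes, while Aqp4 stays at 81.9% or more in all libraries.

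The astrocyte markers were themselves lower in progenitors, with 9 of 10 called lower than in stem cells (3.66% of all genes tested). Their median log2 fold change was -1.74, beside -1.44 for the members. The sort used GLAST, the product of a gene on this marker list. Each member was therefore also set against the summed CPM of the 10 markers in its own library, a scale that TMM factors do not touch and that was chosen after the data were seen, so it is given without a test. Atp1b2 amounted to 47.8 ± 2.76 CPM per 1000 marker CPM in astrocytes, 51.2 ± 7.56 in progenitors and 44.6 ± 3.95 in stem cells (SD, n = 4), and the cell types overlapped. Kcnj16 overlapped too, at 6.39 ± 3.11, 4.47 ± 1.64 and 4.49 ± 1.20 in the same order. Slc4a4 had 28.9 ± 10.9, 16.9 ± 6.61 and 17.53 ± 4.27, and Aqp4 23.8 ± 6.82, 40.0 ± 10.4 and 32.6 ± 2.70.

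The marker sum was lowest in progenitors, so a gene at an even level lies higher there on this scale, and each progenitor library was above all others for 22.5% of 16119 genes. Dag1 and Kcnk1 were among these. Dag1 had 12.7 ± 1.75 CPM per 1000 marker CPM in progenitors (10.7 to 14.9), 4.54 ± 3.19 in astrocytes (0.871 to 8.23) and 3.95 ± 1.48 in stem cells (2.25 to 5.81). Kcnk1 had 21.1 ± 6.54 (15.4 to 28.6), 5.74 ± 5.53 (0.972 to 11.8) and 9.42 ± 2.93 (7.40 to 13.6). Kcnj10 had 5.70 ± 1.61 in progenitors (4.15 to 7.84), 2.997 ± 1.22 in stem cells (1.84 to 4.57) and 7.08 ± 5.82 in astrocytes, which overlapped.

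**Figure D5:**
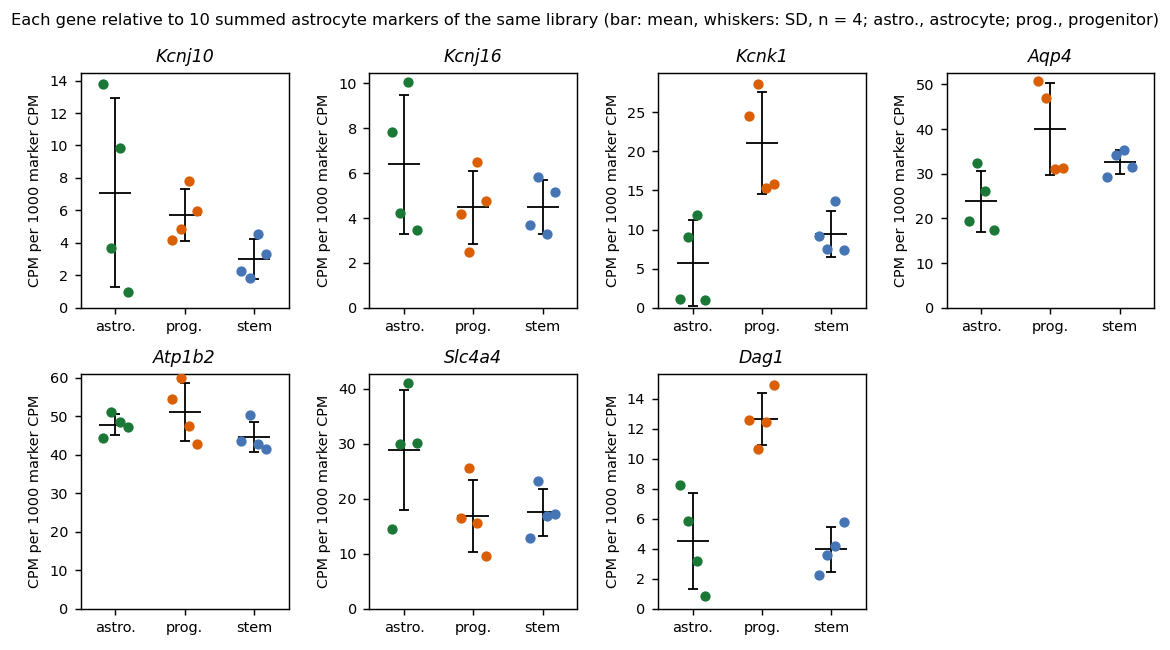
CPM of each gene per 1000 CPM of 10 summed astrocyte markers of the same library (vertical axes, each from 0), by cell type, with the mean and SD. Atp1b2 lies between 41.5 and 59.95 in all 12 libraries, and the progenitor libraries are the highest for Dag1 and Kcnk1.

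The calls against progenitors depended on scaling to an unequal degree. Without TMM factors the median log2 fold change of all genes moved from 0.03 to -0.43 in astrocytes over progenitors and from 0.04 to 0.36 in progenitors over stem cells, and genes called higher and lower went from 363 and 915 to 156 and 1029 in the former and from 763 and 564 to 1140 and 301 in the latter. In astrocytes over progenitors Slc4a4 (1.38, adjusted p = 0.0885) and Atp1b2 (0.48, 0.343) then missed the threshold and their libraries overlapped. In progenitors over stem cells the same 4 members were still called. Leaving out astrocyte c or progenitor a, c or d ended the call of Slc4a4 in astrocytes over progenitors (adjusted p 0.0506 to 0.0654), and leaving out astrocyte b or d or progenitor b, c or d ended that of Atp1b2 (0.0577 to 0.102). Without astrocyte a both were called. With progenitor b, the library without the mural marker Vtn, as the only progenitor library, the test called 0 of 11447 genes in astrocytes over progenitors and 0 of 13795 in progenitors over stem cells (180 and 1063 with an unadjusted p under 0.05), so it gives no information on the calls. The 4 members lower in progenitors than in stem cells had log2 fold changes of -1.32 to -2.70 in it. Counting members whose libraries did not overlap, all 4 progenitor libraries were below all 4 stem cell libraries for 4 of 7, against 7.5% of genes tested. All 4 astrocyte libraries were below the stem cell libraries for 3 of 7, against 6.28%, and above the progenitor libraries for 3 of 7 (Kcnj16, Atp1b2 and Slc4a4), against 5.84%, which fell to 0 of 7 without TMM factors. In 2-sided exact permutation tests of mean log2(CPM + 1), 10 of 21 differences reached 0.0286, the smallest p that 4 against 4 libraries allow, which was 0.06 after Benjamini-Hochberg adjustment over the 21.

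Genes with the pattern most like each member were taken as the 3 with the smallest root mean square distance between centred log2(CPM + 1) values over the 12 libraries, among 16055 genes. Atp1b2 was nearest to Apoe (0.14), Pla2g7 (0.16) and Clu (0.17), where the median distance to all genes was 1.51. Aqp4 was nearest to F3 (0.19), Gm5514 (0.23) and Prdx6 (0.24). Slc4a4 was nearest to Fam20a (0.33), Prex2 (0.36) and Cst3 (0.37), and Kcnj16 to Qk (0.38), Ahcyl1 (0.39) and Id4 (0.41). Kcnk1 had Asah1 (0.43), Rab30 (0.45) and Tmem170 (0.45), Kcnj10 had D3Ertd751e (0.30) and Anapc16 (0.44), and Dag1 had Kpna1 (0.34), Sap18 (0.40) and Gm9774 (0.41). Among the members, Aqp4 and Atp1b2 were the closest pair at 0.37, followed by Atp1b2 and Slc4a4 at 0.51. These distances describe libraries that share their cells' makeup and are given without a test.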

How the data were processed

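RNA-seq of 12 libraries of sorted mouse dentate gyrus cells was used. The authors deposited raw counts per gene, whole numbers without normalization, made by aligning reads to GRCm38.p4 with HISAT2 2.0.6 after removing ribosomal, mitochondrial and PhiX reads and counting them on GENCODE M14 with featureCounts, unstranded. Stem cell columns carry a replicate number, whereas astrocyte and progenitor columns give only the cell type, and those libraries have letters. The lowest chi-square per degree of freedom between libraries of a group was 56.4, so no library was a copy. Symbols, coordinates and exonic lengths came from GENCODE M21 and promoters from RefSeq.

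Each pair of cell types was tested on its 8 libraries with edgeR 4.0.16 (R 4.3.3; TMM, quasi-likelihood, at least 10 counts in at least 4 libraries, Benjamini-Hochberg threshold 0.05 over all genes tested). DESeq2 1.42.0, other size factors, filters, thinning, all 12 libraries in one fit and leaving out each library (at least 10 counts in 3) were alternatives. Further fits, without TMM factors and with progenitor b alone, were added after seeing the data. CPM values use TMM factors over 12 libraries. The steps were tested on simulated data. Python 3.11.15 was used for the rest. Permutation tests were exact and 2-sided.

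The members and gene lists were chosen with earlier results of these data known. Named genes were the members, list genes past the threshold, abundant list genes and the 3 nearest patterns of each member, except genes not reported here. Ratios and Kcnj8 were chosen after their values were seen. Without molecular identifiers, floors cover counting error only.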

Additional observations from a re-analysis of the deposited data

How the results depend on the processing

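The members called higher in astrocytes over progenitors (2 of 7) fell to 1 without a count filter and to 0 with at least 10 counts in every library, and without TMM factors, rose to 3 under DESeq2 and in the fit of all 12 libraries, and ranged from 0 to 2 when libraries were left out in turn. In astrocytes over progenitors DESeq2 called 952 of 14806 genes higher, beside 363 in the main fit. The fit of all 12 libraries called 528 of 16119 higher. The members called between astrocytes and stem cells (0) rose to 1 under DESeq2 and in the fit of all 12 libraries. These called 635 of 12831 and 346 of 16119 genes in that comparison. The 4 members called lower in progenitors than in stem cells became 3 in the fit of all 12 libraries, without Kcnj16 (adjusted p = 0.0586), and were 4 whichever library was left out. With progenitor b alone both counts against progenitors were 0, in a fit that called 0 of all genes and so bears on no member. The cause of the lost calls was not tested. Of 161 member fold changes under settings other than leaving out single libraries, 139 kept direction and call. These settings included the fit with progenitor b alone. Of 168 with a library left out, 152 did. Changes of sign concerned differences that were not called. With at least 10 counts in every library, Aqp4 in astrocytes over progenitors was -0.081, Slc4a4 in astrocytes over stem cells -0.054 and Dag1 in progenitors over stem cells 0.041. Without TMM factors these were -0.193, -0.092 and 0.261, and the mean level differences of Kcnj10 in astrocytes over stem cells and of Aqp4 in astrocytes over progenitors were -0.13 and -0.2. With libraries left out, Kcnj10 in astrocytes over stem cells ranged from -0.10 to 0.75, Slc4a4 from -0.078 to 0.31, and Dag1 in progenitors over stem cells from -0.22 to 0.15. No paired analysis was possible because the astrocyte and progenitor columns carry no replicate number. Every member had at least 110 counts in each library, and thinning the counts to the smallest library left the 3 counts of called members at 2, 0 and 4.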
